A study of Rattus norvegicus with 20 samples.

Results

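The genes described here make sterols or hold sterol synthesis in check: Hmgcs1, Idi1, Fdps, Fdft1, Sqle, Lss, Cyp51 and Insig1. They were taken from the platform's probe annotation as every probe whose only gene symbol was 1 of these 8. Of the 8 genes, 7 had a probe, with 13 probes among 35129 on the array, and Hmgcs1 was not analysed here. Of the 13 probes, 12 passed the filter on dim probes that left 24562 for testing. The probe left out was the second of Insig1, whose centred log2 intensity was -1.82 or lower on all 20 arrays. Where a gene had several probes they are numbered from the brightest, so that Idi1 probe 1 is the brighter of 2.

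The RNA came from mesenteric arteries, the branching vessels that feed the intestine, of female Sprague Dawley rats, 1 rat to each single-colour CodeLink whole genome array. All rats lost their ovaries at 4 weeks of age, recovered for 2 weeks, were then gavaged daily for 3 weeks and were 9 weeks old at the end. The treatments were ethinyl estradiol at 0.15 mg/kg (3 rats), estradiol benzoate at 0.15 mg/kg (3 rats), equilin at 0.15 mg/kg (3 rats), tamoxifen at 3 mg/kg (4 rats), raloxifene at 3 mg/kg (3 rats) and the vehicle alone, hydroxypropyl-β-cyclodextrin (4 rats). Ethinyl estradiol is an orally active synthetic estrogen, estradiol benzoate an ester of estradiol, and equilin an estrogen of horses. Tamoxifen and raloxifene are selective estrogen receptor modulators (SERMs), drugs that mimic estrogen in some tissues and block it in others. The study asked what these agents do to gene expression in the artery. Since every rat, vehicle included, was ovariectomised before its cycles began, no group stands for an animal with ovaries.

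Cells make cholesterol from acetyl-CoA by way of mevalonate, isoprenoids, squalene and lanosterol. When sterols run low, the transcription factor SREBP-2 leaves the endoplasmic reticulum for the nucleus and raises the genes of the whole chain together, along with genes of cholesterol uptake. Insig1 is a membrane protein that retains the SREBP escort protein in the endoplasmic reticulum, and its own gene is an SREBP target, so it works as a brake that the pathway itself supplies.

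No sterol gene passed the test for any agent. Within that limit, the 7 genes were all higher on average in ethinyl estradiol arteries than in vehicle arteries. Insig1 averaged higher in both ethinyl estradiol and equilin arteries. In raloxifene arteries Idi1, Cyp51, Fdps and Fdft1 averaged lower, while Sqle, Lss and Insig1 averaged higher. Idi1 probe 1 and Cyp51 were the 2 of 12 probes lower with raloxifene at unadjusted p under 0.05 in limma, as were 15.8% of all probes. Values are log2 intensities centred on each array's median, so that 0 is the median probe of that array and a difference of 1 is a doubling. A difference was said to pass at a Benjamini-Hochberg adjusted p under 0.05 over all 24562 probes in limma. Over the 7 genes, taking the brightest probe of each, the mean difference from vehicle was 0.49 ± 0.40 in ethinyl estradiol arteries (SD, n = 3), 0.06 ± 0.19 with estradiol benzoate (n = 3), 0.07 ± 0.17 with equilin (n = 3), -0.17 ± 0.21 with tamoxifen (n = 4) and -0.33 ± 0.30 with raloxifene (n = 3), around vehicle arrays that ran from -0.16 to 0.18. Single rats carried much of these means: without ethinyl estradiol array 2 that mean was 0.27, with 6 of 7 genes above vehicle (Fdft1 at -0.09 and Sqle at 0.04), and without raloxifene array 3 the raloxifene mean was -0.16. Ethinyl estradiol had the highest group mean of the 6 groups in 6 of the 7 genes, the exception being Sqle, which was highest with raloxifene, and in 4 of the 7 without its array 2. After centring, the median difference over all tested probes was -0.12 with estradiol benzoate, -0.17 with equilin and -0.13 for the mean of the 3 estrogens. Only counts and values are given for the genes as a set, because the genes were chosen with earlier results known.

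Some features of the arrays touch these values. Array medians of the deposited intensities fell into 2 sets, divided here at their widest gap: 1.0408 to 1.0612 in set A, which holds the 9 estrogen arrays and vehicle array 1, and 1.0007 to 1.0150 in set B, which holds the 7 SERM arrays and vehicle arrays 2 to 4. A class of 384 unnamed probes, regularly spaced in the probe numbering, divided the arrays in the same way, with a median log2 value of 0.69 to 1.84 in set A and -2.18 to -1.38 in set B. The labels do not mention these sets. Only vehicle array 1 tells estrogen treatment and array set apart. The least typical array was raloxifene array 3, whose correlations with the other arrays averaged 0.841, where the other arrays averaged 0.919 to 0.959. Pancreatic acinar markers summed to 654 in deposited intensity on ethinyl estradiol array 3 and to 110 or less on each of the other arrays. Smooth muscle markers were above the array median on all arrays for 5 of 9 genes (Myh11, Tagln, Cnn1, Lmod1 and Synpo2), while Acta2, Smtn, Myocd and Mylk were not, and all 7 endothelial markers were. Adipocyte markers were above it for 8 of 9 genes (all but Lep) although fat had been dissected away, brown fat markers for 1 of 2, fibroblast markers for 4 of 5, macrophage markers for 4 of 4 and lymphocyte markers for 1 of 4. Pancreatic, intestinal and liver markers were above it for 0 of 6, 0 of 3 and 0 of 3. In such whole tissue RNA, fewer cells of a type and less RNA per cell cannot be told apart.

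The promoters of the 3 genes whose differences are followed most closely below are shown because genes that SREBP drives together usually carry SREBP elements beside sites for the general factors NF-Y (CCAAT) and Sp1 (GC box). RefSeq promoter sequences on the GRCr8 rat assembly matched 6 of the 8 genes, the exceptions being Sqle and Fdft1. GRCr8 serves only for these sequences, and the array files name no assembly. Each sequence is the 250 bases before the RefSeq start, 5′ to 3′ on the gene's strand, and capitals mark exact matches on either strand to CCAAT as the NF-Y box, GGGCGG as the GC box, CACGTG as an E-box or GGTCA as an estrogen element half-site.
Idi1, chr17:66547525-66547774, minus strand: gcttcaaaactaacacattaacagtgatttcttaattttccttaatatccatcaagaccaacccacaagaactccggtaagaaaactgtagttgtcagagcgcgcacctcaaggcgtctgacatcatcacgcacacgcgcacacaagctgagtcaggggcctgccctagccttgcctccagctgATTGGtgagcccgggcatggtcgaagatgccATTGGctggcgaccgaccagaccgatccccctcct
Fdps, chr2:176804817-176805066, minus strand: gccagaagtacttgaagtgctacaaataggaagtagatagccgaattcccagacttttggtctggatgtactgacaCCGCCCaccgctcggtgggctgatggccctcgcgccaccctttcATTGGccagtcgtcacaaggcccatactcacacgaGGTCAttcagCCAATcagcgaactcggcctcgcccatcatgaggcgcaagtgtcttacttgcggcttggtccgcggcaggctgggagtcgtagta
Insig1, chr4:8057770-8058019, minus strand: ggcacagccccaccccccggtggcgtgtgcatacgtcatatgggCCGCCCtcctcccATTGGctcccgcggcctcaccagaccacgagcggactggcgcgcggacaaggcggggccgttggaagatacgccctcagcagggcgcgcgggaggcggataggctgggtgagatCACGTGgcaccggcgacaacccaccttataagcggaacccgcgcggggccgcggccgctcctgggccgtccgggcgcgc
CCAAT was found in 5 of the 6 promoters (Hmgcs1, Idi1, Fdps, Lss and Insig1) and in 34% of 33469 rat promoters of the same length. GGGCGG was found in 5 of the 6 (all but Idi1) and in 30.5% of all promoters. Of the 6, the Insig1 promoter alone held CACGTG, 79 bases before the start, against 5.59% of all promoters. GGTCA was found in Cyp51 and Fdps and in 35.4% of all promoters, its match in Fdps lying between both CCAAT boxes. The SREBP element core TCACNCCAC was found in 0 of 6 (0.974% of all promoters) and the full estrogen element (a half-site, 3 free bases and the same half-site in the opposite direction) in 0 of 6 (0.0239%), which says only that these letters are not in these windows.

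Idi1, the isomerase that interconverts the 2 five-carbon isoprenoid units, separated from vehicle in opposite directions under ethinyl estradiol and raloxifene. Idi1 probe 1 read 2.75, 3.56 and 2.91 in ethinyl estradiol arteries, 2.08, 2.68 and 2.58 with estradiol benzoate, 2.70, 2.02 and 2.18 with equilin, 1.82, 1.50, 2.33 and 1.79 with tamoxifen and 1.47, 2.01 and 1.01 with raloxifene, against 2.19, 2.35, 2.62 and 2.69 in vehicle arteries. All ethinyl estradiol arrays lay above all vehicle arrays, which was so for 5.33% of all probes. All raloxifene arrays lay below the vehicle arrays, which was so for 10.9% of all probes. The tamoxifen array at 2.33 reached into the vehicle range. Estradiol benzoate and equilin overlapped vehicle, and those 3 groups, which stand between ethinyl estradiol and the SERMs in the order of means, did not differ beyond their spread. Idi1 probe 1 differed from vehicle by 0.61 ± 0.27 with ethinyl estradiol (SE, adjusted p = 0.319 in limma), by -0.60 ± 0.25 with tamoxifen (0.493) and by -0.97 ± 0.27 with raloxifene (0.062). The 2 SERMs together gave -0.79 ± 0.22 (adjusted p = 0.0873 in limma). The raloxifene call turned on single arrays: without raloxifene array 2 the difference was -1.22 and passed (adjusted p = 0.0171 in limma), as did the SERM mean at -0.91 (0.0371), whereas without raloxifene array 3 it was -0.72 (0.301). Set against the 3 vehicle arrays of set B, by a block for array set, the differences were -0.69 with tamoxifen and -1.06 with raloxifene. Idi1 probe 2 was dim, between -1.89 and -0.67 on all arrays, and differed from vehicle by 0.13 with ethinyl estradiol and by -0.22 with raloxifene. Across the 20 arrays the Idi1 probes correlated at r = 0.44 (Spearman 0.39), over arrays that share treatments and array sets.

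Fdps, the synthase that joins those units into farnesyl diphosphate, was brightest with ethinyl estradiol. Fdps read 5.21, 5.74 and 5.11 in ethinyl estradiol arteries, 4.58, 4.79 and 4.69 with estradiol benzoate, 4.87, 4.85 and 4.49 with equilin, 4.43, 4.46, 4.73 and 3.43 with tamoxifen and 4.86, 4.47 and 3.76 with raloxifene, against 4.92, 4.63, 4.97 and 4.84 in vehicle arteries. The ethinyl estradiol arrays lay above all vehicle arrays and above those of the other estrogens. Of all probes, 5.33% lay so above vehicle, 15.7% above estradiol benzoate and 17.1% above equilin. The lowest Fdps value of all came from tamoxifen array 4. The difference from vehicle was 0.51 ± 0.28 with ethinyl estradiol (SE, adjusted p = 0.426 in limma), -0.58 ± 0.26 with tamoxifen (0.531) and -0.47 ± 0.28 with raloxifene (0.269). Without tamoxifen array 4 the tamoxifen difference was -0.30, and without raloxifene array 3 the raloxifene difference was -0.17.

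**Figure D1:**
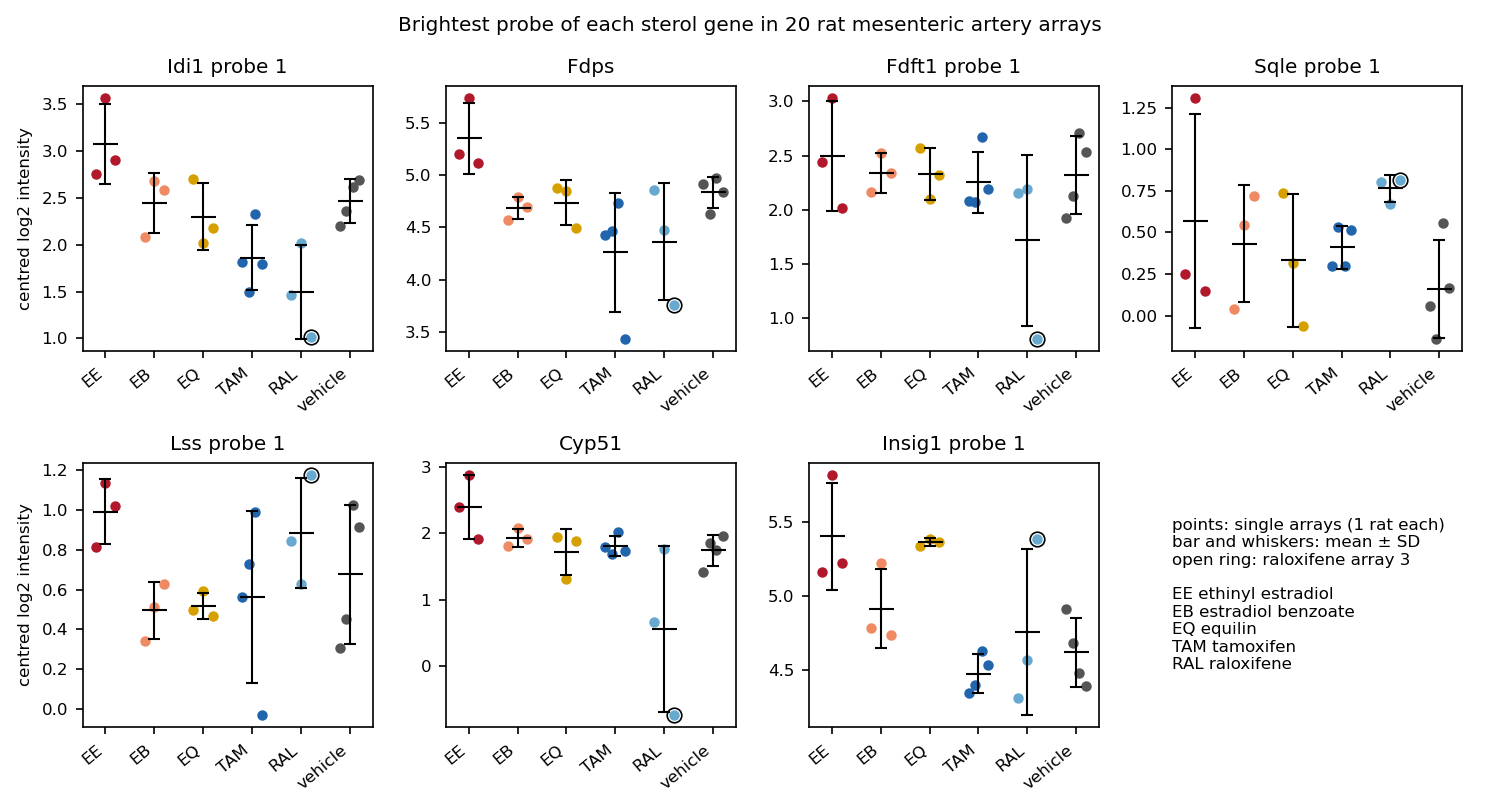
Centred log2 intensity (y axis of each panel, with its own range) of the brightest probe of 7 sterol genes in each of 20 arrays, by treatment. Points are single rats, bars the mean ± SD, and the open ring raloxifene array 3. Ethinyl estradiol lay above vehicle without overlap for Idi1, Fdps and Insig1, and for 5.33% of all probes. The ringed array was the lowest of all 20 for Idi1, Fdft1 and Cyp51.

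Squalene is made by Fdft1 and oxidised by Sqle, and neither enzyme stood clear of vehicle under the estrogens. Fdft1 probe 1 ran from 2.02 to 3.03 in ethinyl estradiol arteries, from 2.16 to 2.53 with estradiol benzoate, from 2.10 to 2.57 with equilin, from 2.07 to 2.67 with tamoxifen and from 0.81 to 2.20 with raloxifene, against 1.92 to 2.71 in vehicle arteries. Every treated group overlapped the vehicle range, and raloxifene array 3 alone lay far below it. The raloxifene difference was -0.60 ± 0.31 (SE, adjusted p = 0.21 in limma) and -0.15 without that array. Fdft1 probe 2 differed from vehicle by 0.30 ± 0.21 with ethinyl estradiol (adjusted p = 0.56 in limma) and by between -0.20 and 0.09 with the other agents. The Fdft1 probes correlated at r = 0.50 over 20 arrays (Spearman 0.58) and at 0.69 without raloxifene array 3.

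By its brighter probe Sqle, an oxygenase and a controlled step of the pathway, ran the other way under raloxifene. Sqle probe 1 read 0.80, 0.67 and 0.82 in raloxifene arteries, against 0.06, -0.14, 0.56 and 0.17 in vehicle arteries. These arrays did not overlap, which was so upward for 6.2% of all probes. The difference was 0.60 ± 0.26 (SE, adjusted p = 0.145 in limma). It was 0.58 without raloxifene array 3 and 0.57 with the array set as a block. Sqle probe 1 ran from 0.04 to 0.72 with estradiol benzoate, from -0.06 to 0.74 with equilin and from 0.30 to 0.53 with tamoxifen, all overlapping vehicle. Sqle probe 2 differed by 0.51 ± 0.27 (adjusted p = 0.225 in limma) and by 0.07 without raloxifene array 3, which read 0.08 where the other 2 raloxifene arrays read -1.35 and -1.11. The Sqle probes correlated at r = 0.24 over 20 arrays (Spearman 0.14) and at 0.05 without raloxifene array 3. In ethinyl estradiol arteries Sqle probe 1 read 0.25, 1.31 and 0.15, so that its difference of 0.41 ± 0.26 came to 0.04 without array 2.

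Lss, which closes squalene epoxide into lanosterol, overlapped vehicle under every agent. Lss probe 1 read 0.81, 1.14 and 1.02 in ethinyl estradiol arteries, 0.34, 0.51 and 0.63 with estradiol benzoate and 0.50, 0.59 and 0.47 with equilin, and ran from 0.31 to 1.03 in vehicle arteries. The ethinyl estradiol arrays lay above both other estrogens, yet the vehicle range covered most of these values. Of all probes, 15.7% lay in this way above estradiol benzoate and 17.1% above equilin. The probe ran from -0.03 to 0.99 with tamoxifen and from 0.63 to 1.18 with raloxifene, also across the vehicle range. The difference from vehicle was 0.31 ± 0.22 with ethinyl estradiol (SE, adjusted p = 0.564 in limma). Lss probes 2 and 3 differed from vehicle by -0.26 to 0.12 over the 5 agents, and the correlations among the 3 Lss probes ran from -0.18 to 0.12 over 20 arrays and from -0.04 to 0.47 without raloxifene array 3.

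Cyp51, the lanosterol demethylase, was low on 2 of 3 raloxifene arrays. Cyp51 read 0.66, 1.76 and -0.74 in raloxifene arteries and 1.80, 1.68, 2.02 and 1.73 with tamoxifen, against 1.41, 1.85, 1.75 and 1.95 in vehicle arteries. Raloxifene array 2 sat inside the vehicle range and array 3 was by far the lowest of all. The raloxifene difference was -1.18 ± 0.38 (SE, adjusted p = 0.0809 in limma). It was -0.53 (0.464) without array 3 and -1.78, passing, without array 2 (0.00596), so the size and the call rest on which raloxifene rats are counted. Tamoxifen exceeded raloxifene by 1.25 ± 0.38 (adjusted p = 0.352 in limma, and 1.85 with 0.0121 without raloxifene array 2, and 0.60 without raloxifene array 3). In ethinyl estradiol arteries Cyp51 read 2.39, 2.88 and 1.91, overlapping the vehicle arrays, with a difference of 0.65 ± 0.38 (adjusted p = 0.464 in limma). It ran from 1.80 to 2.07 with estradiol benzoate and from 1.31 to 1.94 with equilin, also across the vehicle range.

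Insig1, the brake, was above vehicle on every ethinyl estradiol and equilin array, which was so for 5.33% and 6.95% of all probes. Insig1 probe 1 read 5.16, 5.82 and 5.22 in ethinyl estradiol arteries, 4.78, 5.22 and 4.73 with estradiol benzoate and 5.33, 5.39 and 5.37 with equilin, against 4.91, 4.68, 4.48 and 4.39 in vehicle arteries. The estradiol benzoate arrays overlapped the vehicle arrays. The difference was 0.79 ± 0.23 with ethinyl estradiol (SE, adjusted p = 0.106 in limma), 0.75 ± 0.23 with equilin (0.0772), 0.30 ± 0.23 with estradiol benzoate (0.853) and 0.61 ± 0.18 for the mean of the 3 estrogens (0.0907). The SERM arrays read 4.34, 4.40, 4.63 and 4.53 with tamoxifen and 4.31, 4.57 and 5.39 with raloxifene. Tamoxifen differed from vehicle by -0.14 ± 0.21 and raloxifene by 0.14 ± 0.23, or -0.18 without its array 3, which lay above every vehicle array.

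The Insig1 call moved with the processing. Raloxifene array 3 enters the estrogen comparisons only through the shared estimate of spread, and without it Insig1 passed for ethinyl estradiol (adjusted p = 0.0236 in limma), equilin (0.0147) and the estrogen mean (0.0144), at the same differences. With quantile normalization the differences were 0.90 for ethinyl estradiol (0.0683), 1.05 for equilin (0.0192) and 0.83 for the estrogen mean (0.0175). When only the groups compared were fitted the estrogen mean passed (0.0422). Vehicle array 1, the only vehicle array of set A, was the highest vehicle array. With the array set as a block the difference was 0.49 with ethinyl estradiol (adjusted p = 0.951 in limma), 0.00 with estradiol benzoate and 0.45 with equilin (0.913).

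**Figure D2:**
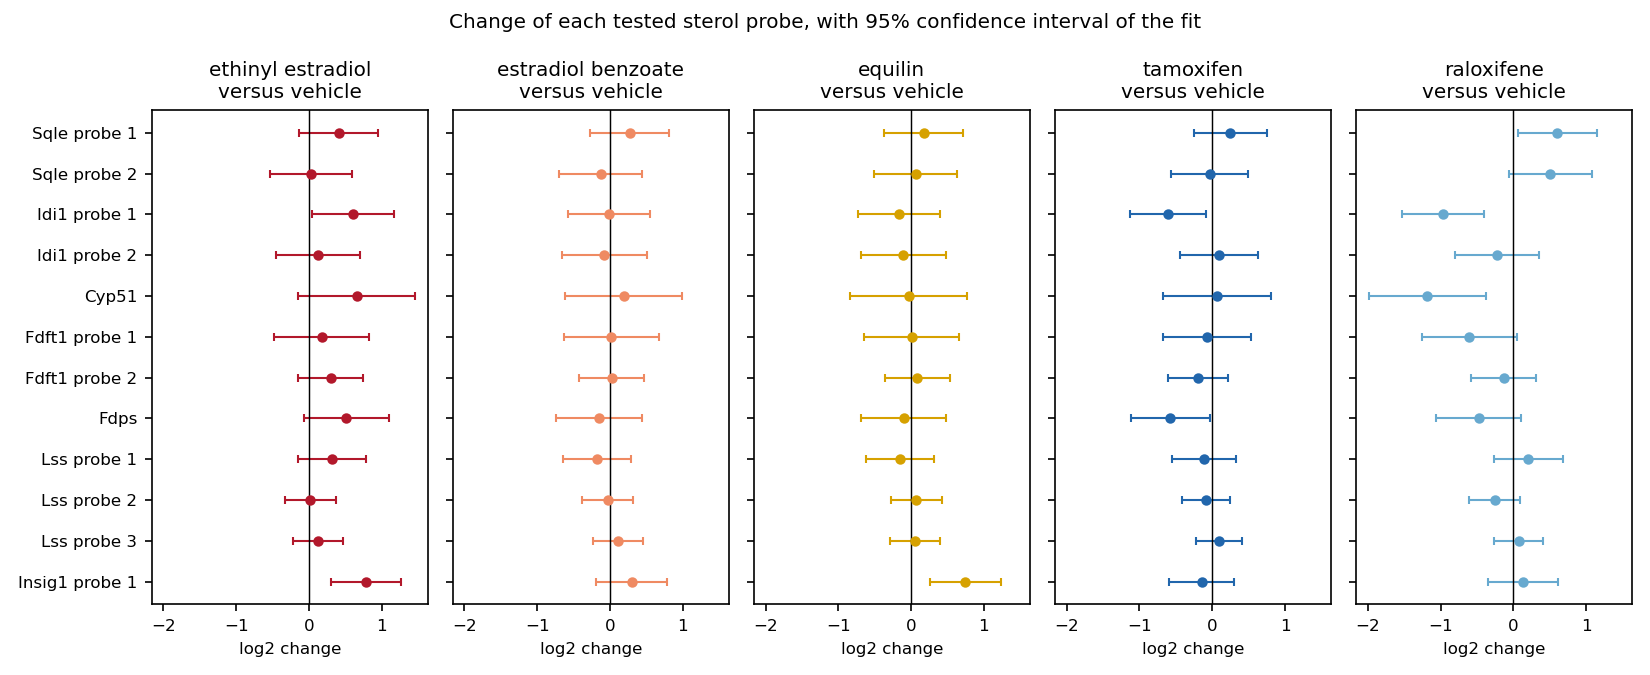
Log2 difference from vehicle (x axis) of the 12 tested sterol probes under each of 5 agents, with the 95% confidence interval of the limma fit. All 12 points lie right of 0 for ethinyl estradiol (8 of 12 without its array 2), as do 43.5% of all probes. The intervals clear 0 for Insig1 probe 1 with ethinyl estradiol and equilin, Idi1 probe 1 with ethinyl estradiol, tamoxifen and raloxifene, Fdps with tamoxifen, and Cyp51 and Sqle probe 1 with raloxifene. At unadjusted p under 0.05 in limma, 5.27% of all probes were higher with ethinyl estradiol and 6.06% with equilin. With tamoxifen 4.87% were lower, and with raloxifene 11.7% were higher and 15.8% lower.

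Counted over the 12 tested probes, 0 passed in limma with ethinyl estradiol, where 1.2% of all 24562 probes passed. Without adjustment 2 sterol probes were higher at p under 0.05 (Idi1 probe 1 and Insig1 probe 1), against 5.27% of all probes. Non-overlap with vehicle upward was seen for 3 sterol probes (Idi1 probe 1, Fdps and Insig1 probe 1), against 5.33% of all probes. All 12 sterol probes were above 0 with a median of 0.31, where 43.5% of all probes were and their median was -0.05. The 12 probes are not independent, since several measure 1 gene and all share the same 7 arrays. In ethinyl estradiol arteries rat 2 was the highest of its group in 7 of 7 genes and the highest of all 20 arrays in 6. Without it 8 of the 12 probes were above 0, with a median of 0.10, and Fdft1 probe 1 (-0.09), Sqle probe 2 (-0.11), Idi1 probe 2 (-0.10) and Lss probe 2 (-0.06) were below 0. Without it the differences were 0.37 for Idi1 probe 1, 0.32 for Fdps, 0.41 for Cyp51 and 0.58 for Insig1 probe 1.

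The other agents gave fewer sterol probes above 0 than ethinyl estradiol, and all 5 comparisons share the vehicle arrays. Above 0 were 6 of 12 with estradiol benzoate (33.2% of all probes) and 7 with equilin (34.1%). With tamoxifen 4 were above 0 (45.9%), and with raloxifene 5 (48.1%). With estradiol benzoate 0 of 12 passed (0.7% of all probes) and 0 had p under 0.05 (7.69%), with a median difference of 0.00 against -0.12 over all probes. With equilin 0 of 12 passed (3.69%), 1 was higher at p under 0.05 (Insig1 probe 1, against 6.06% of all probes) and the same probe did not overlap vehicle (6.95% upward), and the median was 0.03 against -0.17. With tamoxifen 0 of 12 passed (0.224%) and 2 were lower at p under 0.05 (Idi1 probe 1 and Fdps, against 4.87% of all probes). With raloxifene 0 of 12 passed (2.04%), Sqle probe 1 was higher and Idi1 probe 1 and Cyp51 were lower at p under 0.05 (against 11.7% of all probes higher and 15.8% lower), and Sqle probe 1 and Idi1 probe 1 were the 2 that did not overlap vehicle (6.2% upward, 10.9% downward). The estrogen mean gave 0 of 12 (2.61%) with 1 higher at p under 0.05 (Insig1 probe 1, against 5.9% of all probes), and the SERM mean 0 of 12 (0.574%) with 2 lower (Idi1 probe 1 and Fdps, against 10.7%).

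Agents given at the same dose were compared in 4 pairs. Ethinyl estradiol against estradiol benzoate gave 0 passing sterol probes (0.281% of all probes passed), 2 higher at p under 0.05 (Idi1 probe 1 and Fdps, against 5.23% of all probes), and 3 without overlap, all higher with ethinyl estradiol (Idi1 probe 1, Fdps and Lss probe 1, against 15.7% of all probes). All 12 sterol probes were above 0 in that pair, as were 54.1% of all probes. Fdps was higher with ethinyl estradiol than with estradiol benzoate by 0.67, with a 95% interval of 0.04 to 1.29 (adjusted p = 0.511 in limma), and Insig1 probe 1 by 0.49, with an interval of -0.03 to 1.01. Ethinyl estradiol carries an ethynyl group that estradiol benzoate lacks, and the benzoate carries an ester.

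Ethinyl estradiol against equilin also gave 0 passing sterol probes (0.175% of all probes), 1 higher at p under 0.05 (Idi1 probe 1, against 6.98% of all probes), and 3 that did not overlap, the same Idi1, Fdps and Lss probes, against 17.1% of all probes. Idi1 probe 1 was higher with ethinyl estradiol than with equilin by 0.77, with a 95% interval of 0.17 to 1.38 (adjusted p = 0.389 in limma). For Insig1 probe 1 that difference was 0.04, with an interval of -0.48 to 0.56, which leaves room for a difference in either direction. Equilin against estradiol benzoate gave 0 passing sterol probes, 0% of all probes and 0 at p under 0.05 (3.4% of all probes), and Insig1 probe 1 alone did not overlap (higher by 0.45, interval -0.07 to 0.97, against 6.34% of all probes). Equilin has an additional ring double bond. Tamoxifen against raloxifene gave 0 passing sterol probes (0.00407% of all probes), Cyp51 higher at p under 0.05 (8.84% of all probes), and 1 without overlap, Sqle probe 1, lower with tamoxifen by 0.35 (interval -0.90 to 0.19, against 3.55% of all probes).

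Enzymes of the chain beyond the 7 genes did not pass anywhere. Of 16 other synthesis enzymes listed, 12 had a tested probe, and 0 passed in any of the 11 comparisons. In ethinyl estradiol arteries 6 of the 12 were above 0, with a median of -0.03, against -0.05 over all probes. The lowest p in that comparison belonged to Nsdhl, which helps strip methyl groups from lanosterol, at 0.46 ± 0.19 (SE, adjusted p = 0.279 in limma), followed by Tm7sf2 and Lbr, both sterol reductases, at 0.45 and 0.50, and Ggps1, which makes geranylgeranyl diphosphate, at -0.40. Lbr was among the 4 lowest p in 4 of the vehicle comparisons besides this, at 0.36 with estradiol benzoate, 0.65 with equilin and 0.41 with tamoxifen. With raloxifene Lbr was at 0.82 ± 0.29 (adjusted p = 0.0943 in limma), or 0.43 without raloxifene array 3. All 5 Lbr differences share the same 4 vehicle arrays, which ran from 0.085 to 0.81, so their common sign is not 5 separate observations. The others with low p were below 0 with raloxifene, Pmvk at -0.69, the brighter Sc5d probe at -0.64 and Msmo1 at -0.50, and without raloxifene array 3 they were at -0.19, -0.09 and -0.05. The other Sc5d probe was at 0.62 with raloxifene (adjusted p = 0.109 in limma), opposite in sign. With equilin Mvk, mevalonate kinase, was at -0.50 and Ggps1 at -0.60, and with tamoxifen Mvd, which makes isopentenyl diphosphate, was at -0.35.

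Among 21 regulators and genes of uptake and export, 15 were tested and 1 passed. Abcg1, which exports cholesterol to HDL particles, read 2.89, 2.56 and 2.94 in ethinyl estradiol arteries, 3.78, 3.46 and 3.55 with estradiol benzoate and 3.44, 3.04 and 2.76 with equilin, against 4.32, 4.02, 4.07 and 4.24 in vehicle arteries. All 9 estrogen arrays lay below all 4 vehicle arrays. The share of all probes lying so is not given here, and of the vehicle arrays only array 1 shares set A with the estrogen arrays. Abcg1 fell by 1.37 ± 0.24 on the log2 scale with ethinyl estradiol (adjusted p = 0.00983 in limma), by 1.08 ± 0.24 with equilin (0.0185) and by 1.0 ± 0.19 for the estrogen mean (0.00524), and was at -0.56 ± 0.24 with estradiol benzoate (0.566). Its lowest tamoxifen array was 3.68, the other 3 lay above every vehicle array, and raloxifene arrays ran from 3.85 to 4.49. With the array set as a block Abcg1 was at -1.52 with ethinyl estradiol (adjusted p = 0.092 in limma), -1.24 with equilin (0.201) and -1.16 for the estrogen mean (0.189), none of them passing, and with quantile normalization equilin was at -0.77 (0.0802). The equilin call was also lost without equilin array 2 (-1.06, 0.111), equilin array 3 (-0.92, 0.129), vehicle array 3 (-1.11, 0.0547) or vehicle array 4 (-1.06, 0.0575), and the ethinyl estradiol call when only its own and the vehicle arrays were fitted (0.0597).

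The list of regulators had a median of -0.32 with ethinyl estradiol, 13 of 15 below 0. It was -0.26 with equilin and -0.16 with estradiol benzoate, each with 12 of 15 below 0. All probes had medians of -0.05, -0.17 and -0.12 in that order, and 43.5%, 34.1% and 33.2% of them were above 0. Srebf2, which encodes SREBP-2, averaged 2.77 ± 0.26 in ethinyl estradiol arteries, 2.68 ± 0.24 with equilin and 2.79 ± 0.18 with raloxifene (SD, n = 3 each), against 2.68 ± 0.34 in vehicle arteries (n = 4). Its differences from vehicle ran from 0.00 with equilin to 0.24 ± 0.18 with tamoxifen (SE, adjusted p = 0.73 in limma), inside the vehicle arrays' own spread.

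**Figure D3:**
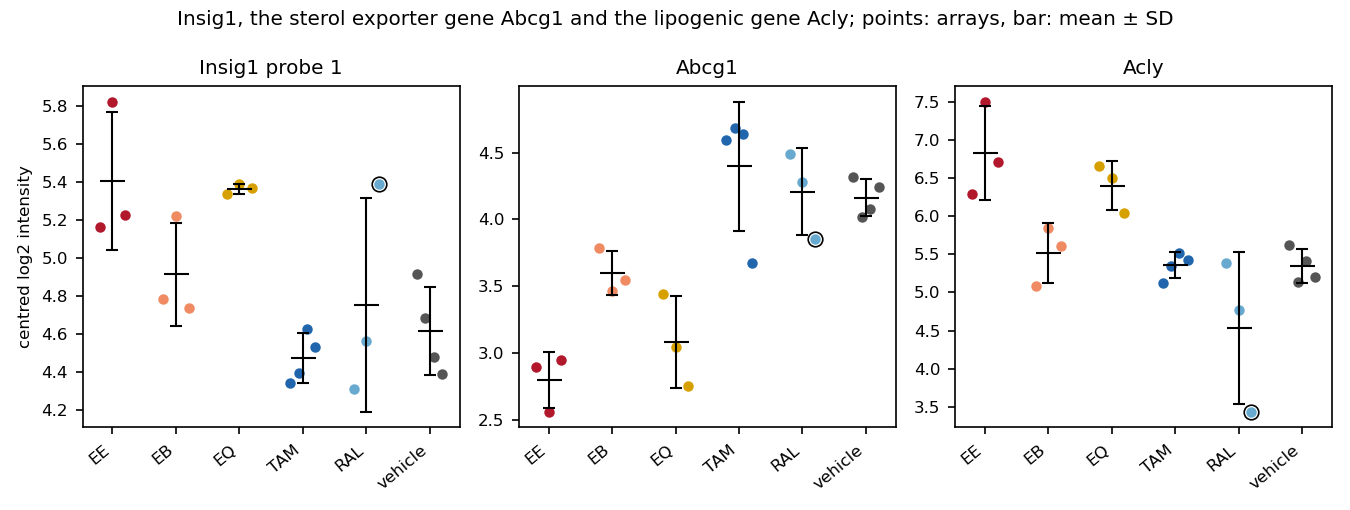
Centred log2 intensity (y axis, separate range per panel) of Insig1 probe 1, Abcg1 and Acly in the 20 arrays by treatment, with points for rats, bars for mean ± SD and a ring for raloxifene array 3. Abcg1 lies below vehicle in all 9 estrogen arrays, and the share of all probes lying so is not given here. Insig1 and Acly lie above vehicle in all ethinyl estradiol and equilin arrays, as did 5.33% of all probes with ethinyl estradiol and 6.95% with equilin.

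Fatty acid synthesis, the sister pathway that draws on the same acetyl-CoA and is driven mainly by SREBP-1c, gave calls where the sterol genes gave none. Of 11 genes tested, 6 rose with ethinyl estradiol (Acly, Acaca, Elovl6, Scd, Me1 and Thrsp), with a list median of 1.38, and 5 rose with equilin (Acaca, Elovl6, Scd, Me1 and Thrsp), with a median of 1.06. Of all probes, 1.2% passed with ethinyl estradiol and 3.69% with equilin, in either direction. None passed with estradiol benzoate, tamoxifen or raloxifene in limma, where 0.7%, 0.224% and 2.04% of all probes did. At unadjusted p under 0.05 there were 2 with estradiol benzoate (7.69% of all probes) and 0 with tamoxifen. With raloxifene there was 1, lower (15.8% of all probes were lower). Acly, which makes the cytosolic acetyl-CoA that both pathways use, rose by 1.49 ± 0.35 with ethinyl estradiol (SE, adjusted p = 0.0475 in limma) and was at 1.06 ± 0.35 with equilin (0.0989). The count of 6 was 1 when only ethinyl estradiol and vehicle arrays were fitted, and the count of 5 was 0 without equilin array 2. This list was chosen with earlier results of these data known.

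**Figure D4:**
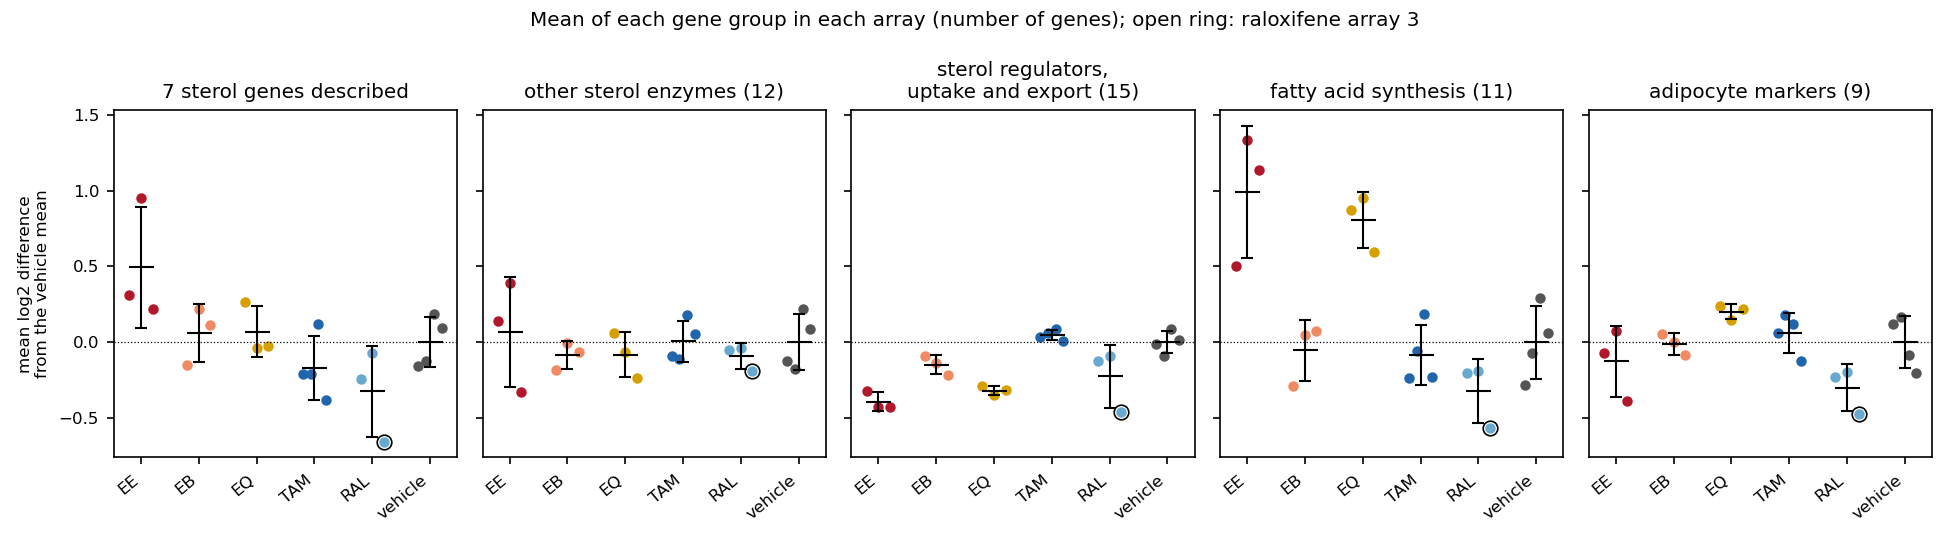
Mean log2 difference from the vehicle mean (y axis) of the 7 sterol genes, 12 other sterol enzymes, 15 sterol regulators and transport genes, 11 fatty acid genes and 9 adipocyte markers, one point per array, with mean ± SD. The mean of the 7 sterol genes was above the highest vehicle array (0.18) in all 3 ethinyl estradiol arrays, at 0.22 in the lowest. Estradiol benzoate array 2 (0.22) and equilin array 1 (0.26) were also above it. The mean of the fatty acid genes was above the highest vehicle array in all ethinyl estradiol and equilin arrays.

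Markers of several cell types varied beside these values. Fibroblast markers, as a mean log2 difference from vehicle, ran from -0.92 to -0.51 in ethinyl estradiol arteries, -0.16 to -0.13 with estradiol benzoate, -0.66 to -0.39 with equilin, -0.61 to -0.42 with tamoxifen and -1.16 to -0.34 with raloxifene, against -0.17 to 0.14 in vehicle arteries. All treated arrays but those of estradiol benzoate lay below every vehicle array. Of 5 fibroblast genes 2 fell with ethinyl estradiol and 1 each with equilin, tamoxifen and raloxifene. Of all probes, 1.2%, 3.69%, 0.224% and 2.04% passed in these comparisons, in either direction. Their summed deposited intensity was 263 to 309 in ethinyl estradiol arteries, 347 to 367 with estradiol benzoate, 259 to 305 with equilin, 271 to 328 with tamoxifen and 305 to 414 with raloxifene, against 360 to 413 in vehicle arteries. Smooth muscle markers ran from 0.17 to 0.43 in ethinyl estradiol arteries, -0.42 to -0.28 with estradiol benzoate, -0.45 to -0.41 with equilin, -0.84 to 0.05 with tamoxifen and 0.19 to 0.30 with raloxifene, against -0.14 to 0.09 in vehicle arteries. They lay above vehicle on every ethinyl estradiol and raloxifene array and below it on every estradiol benzoate and equilin array. Of 9 smooth muscle genes 1 rose with ethinyl estradiol, 1 fell with estradiol benzoate and 2 fell with equilin. In these comparisons 1.2%, 0.7% and 3.69% of all probes passed, in either direction. Their summed intensity was 872 to 971 in ethinyl estradiol arteries, 529 to 681 with estradiol benzoate, 617 to 699 with equilin, 530 to 717 with tamoxifen and 675 to 950 with raloxifene, against 756 to 902 in vehicle arteries. The summed deposited intensity of 9 adipocyte markers was 704 to 1008 in ethinyl estradiol arteries, 813 to 1010 with estradiol benzoate, 1032 to 1100 with equilin, 733 to 1019 with tamoxifen and 759 to 774 with raloxifene, against 769 to 1087 in vehicle arteries. The mean of these markers relative to vehicle was -0.39 to 0.07 with ethinyl estradiol, where the sterol genes were highest, and -0.48 to -0.19 with raloxifene, where Idi1 and Cyp51 were lowest. The part of these markers in the sterol values was not tested. Ethinyl estradiol array 3, with its pancreatic markers, gave the lowest value of its group in 4 of the 7 sterol genes. Array 1, where those markers summed to 3.7, gave the lowest in the other 3. Without array 3 the ethinyl estradiol differences were 0.69 for Idi1 probe 1, 0.63 for Fdps, 0.90 for Cyp51 and 0.88 for Insig1 probe 1.

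The sterol genes followed one another unevenly from array to array. Over the 20 arrays, which share treatments and array sets, the 21 pairs of brightest probes had a median Pearson correlation of 0.22 (range -0.15 to 0.87, median Spearman 0.25), with 19 of 21 above 0. Fdft1 and Cyp51 were the closest pair (r = 0.87), followed by Idi1 and Cyp51 (0.81), Idi1 and Fdft1 (0.77) and Idi1 and Fdps (0.76). Sqle, Lss and Insig1 followed these 4 less closely, at -0.15 to 0.44. Without raloxifene array 3 the median was 0.48 and all 21 pairs were above 0, and Insig1 with Idi1 was at 0.65 in place of 0.41. With the group means taken out the median over 20 arrays was 0.32 (range -0.38 to 0.85), with 16 of 21 above 0.

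**Figure D5:**
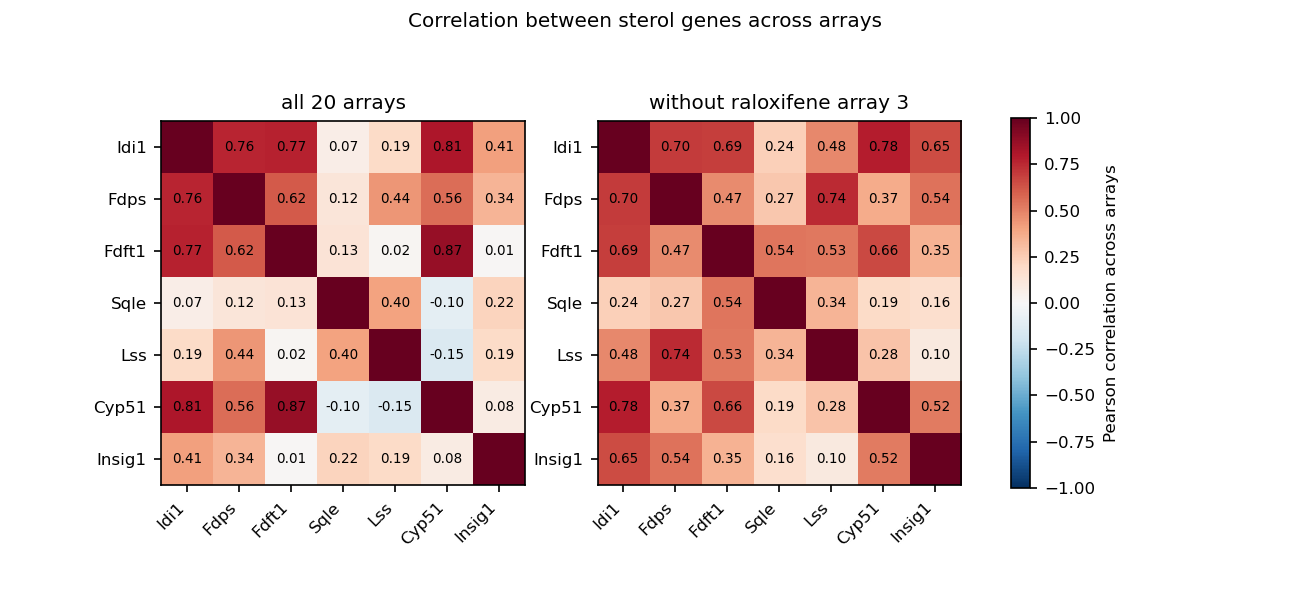
Pearson correlation (colour scale from -1 to 1, value in each cell) between the brightest probes of 7 sterol genes across all 20 arrays and without raloxifene array 3. Across all 20 arrays the 6 pairs among Idi1, Fdps, Fdft1 and Cyp51 gave the highest values, and without the array all 21 values were above 0 and Fdps with Lss was at 0.74.

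Among 13312 other named probes, those most like the mean of the 7 sterol genes over 20 arrays were Ldb3 (r = 0.87, Spearman 0.81), Mrap (0.84, 0.84), Acss2 (0.82, 0.77), Gbe1 (0.82, 0.70), Acly (0.82, 0.71) and Calcb (0.81, 0.82). Acss2 and Acly both supply acetyl-CoA, Mrap encodes the accessory protein of the corticotropin receptor, Ldb3 a muscle Z-disc protein, Gbe1 the glycogen branching enzyme and Calcb a calcitonin gene-related peptide. For these 6 the Pearson correlation was 0.66 to 0.72 within groups and 0.74 to 0.83 without raloxifene array 3. They were picked as the highest on the same arrays, so these values are no separate check of the resemblance. Acss2 was at 1.12 ± 0.36 with ethinyl estradiol (SE, adjusted p = 0.152 in limma) and -0.65 ± 0.36 with raloxifene (0.246), or -0.02 without raloxifene array 3. Ldb3 has 6 tested probes, whose differences from vehicle with raloxifene ran from -1.11 to 0.21, so the value given is that of 1 probe.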

How the data were processed

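Gene expression was measured in mesenteric artery RNA from 20 rats in 6 treatment groups, 1 array per rat, and replicates are individual rats. The deposited values are linear intensities, and from the values themselves (array medians close to 1, some below 0) the authors had subtracted background and scaled each array. Per the series' design text, slides were scanned on a GenePix 4000B with GenePix Pro 5.0, and CodeLink Expression Analysis, Acuity 3.1 and GeneSpring 7.1 were used, with the step each served not given in the sources used here. Probe genes came from the platform annotation: 16865 probes had 1 symbol, 165 several and 18099 none, and the last 2 kinds were not named.

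Here negative intensities became 0, the offset 0.103 (a factor of 0.1 on the arrays' median) was added before log2 was taken, and each array was centred on its median. The offset understates changes of dim probes. Probes missing on more than 1 array of a group were dropped (40), as was the dimmest 30% of the rest by mean. Groups were compared in 1 limma fit (R 4.3.3, limma 3.58.1) with a variance trend over all 20 arrays, 14 residual degrees of freedom, and Benjamini-Hochberg adjustment over 24562 probes. The number of arrays limits the precision. The fit was tested on simulated data for ethinyl estradiol against vehicle, with independent normal noise of each probe's own spread within groups. Of 50 probes given a log2 change of 0.5, 0 passed, and of 50 given a change of 1, 24 passed. For changes of 1.5 and 2 these counts were 39 and 43, and 5 unchanged probes passed. A change of the size seen in most sterol probes would thus often go uncalled. All probes of the 8 genes are described, and other pathway genes are named where they passed, else as the 4 with the lowest p in each vehicle comparison, with Srebf2 always. The genes and lists were chosen with earlier results of these data known. The 6 most alike genes are those with the highest Pearson correlation.

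Alternatives were quantile normalization, other offsets and filters, only the groups compared, blocks for replicate number and array set, the regularly spaced unnamed probes left out, and each array left out. Leaving out raloxifene array 3 together with the array set block was added after seeing the data. The replicate numbers were checked for pairing over 46 pairs of arrays of different groups with the same number: their deviations correlated at a median of 0.02 (-0.43 to 0.30), so they were not taken as pairs.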

Additional observations from a re-analysis of the deposited data

How the results depend on the processing

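Single arrays moved the counts over all probes by more than 1.5 times in nearly every comparison. The alternatives gave 4202 values of the 12 sterol probes. Of these, 4153 kept their side of the threshold without moving beyond the spread, 39 moved and 10 came to pass. The sign was kept in 4018. No sterol probe passed in the main fit, so none could lose a call. Many settings leave a difference unchanged by construction, such as leaving out an array of a group outside the comparison. These counts therefore say little about stability. The number of sterol probes passing, 0 throughout the report, was 1 for equilin and 1 for the estrogen mean with quantile normalization (Insig1 probe 1), and 1 for the estrogen mean when only the groups compared were fitted. With 1 array left out it was 0 to 1 for ethinyl estradiol, equilin, the estrogen mean, the SERM mean and tamoxifen against raloxifene, 0 to 2 for raloxifene, and 0 elsewhere.

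Leaving out 1 array at a time, the probes passing numbered 74 to 740 for ethinyl estradiol (295 with all arrays), 0 to 357 for estradiol benzoate (172), 0 to 3067 for equilin (906), 18 to 166 for tamoxifen (55), 5 to 3774 for raloxifene (502), 298 to 1379 for the estrogen mean (640) and 33 to 914 for the SERM mean (141). They numbered 23 to 259 for ethinyl estradiol against estradiol benzoate (69), 2 to 301 for ethinyl estradiol against equilin (43), 0 to 2 for equilin against estradiol benzoate (0) and 0 to 224 for tamoxifen against raloxifene (1).

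Other settings moved the same counts. Quantile normalization gave 22 for ethinyl estradiol against equilin and 6 for equilin against estradiol benzoate. The smaller offset gave 0 for estradiol benzoate. With no filter on dim probes there were 111 for raloxifene and 22 for ethinyl estradiol against equilin. With the lowest 50% left out there were 148 for ethinyl estradiol, 0 for estradiol benzoate, 536 for equilin, 323 for the estrogen mean and 2 for equilin against estradiol benzoate. Fitting only the groups compared, with fewer arrays to estimate the spread, gave 9 for ethinyl estradiol, 0 for estradiol benzoate, 130 for equilin, 34 for tamoxifen, 0 for raloxifene, 12 for the SERM mean, 1 for equilin against estradiol benzoate and 0 for each of the other pairs of agents. Without the regularly spaced probes there were 164 for ethinyl estradiol, 0 for estradiol benzoate, 279 for equilin and 114 for the estrogen mean. The array set as a block gave 134 for ethinyl estradiol, 100 for estradiol benzoate, 159 for equilin, 26 for tamoxifen, 19 for raloxifene, 167 for the estrogen mean, 33 for the SERM mean and 0 for tamoxifen against raloxifene. Leaving out raloxifene array 3 as well, chosen after seeing the data, gave 320 for equilin, 95 for tamoxifen, 6 for raloxifene, 272 for the estrogen mean, 84 for the SERM mean, 247 for ethinyl estradiol against estradiol benzoate, 302 for ethinyl estradiol against equilin, 2 for equilin against estradiol benzoate and 0 for tamoxifen against raloxifene. Beyond what each setting changes by its construction, the cause was not tested.

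Same-numbered arrays of different groups were not paired (46 pairs, median correlation 0.02), and 5 of 20 arrays correlated best with their own number. With the replicate number as a block, the probes passing numbered 62 for ethinyl estradiol, 0 for estradiol benzoate, 365 for equilin, 421 for the estrogen mean and 2 for equilin against estradiol benzoate, and 0 sterol probes passed in any comparison.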
